A study of Mus musculus with 6 samples.

Results

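The *Id* genes and 5 other transcriptional targets of bone morphogenetic protein (BMP) signalling were followed in mouse visual cortex with and without *Chrdl1*. The 9 members, *Id1*, *Id2*, *Id3*, *Id4*, *Hey1*, *Smad6*, *Smad7*, *Bambi* and *Atoh8*, were taken by gene symbol from the 24453 gene rows of the deposited table, and each matched 1 row. BMPs are secreted ligands that bind receptor kinases at the cell surface. The receptors phosphorylate Smad1, Smad5 and Smad9, which join Smad4, enter the nucleus and switch on target genes, of which the *Id* genes are the best known. The targets in this set answer the signal in different ways: Id proteins sequester bHLH transcription factors, Hey1 and Atoh8 are such factors themselves, and Smad6, Smad7 and Bambi restrain the pathway as feedback inhibitors. *Chrdl1* encodes chordin-like 1, a BMP antagonist secreted by astrocytes in the cortex, so the level of these targets is one reading of the pathway in its absence.

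The libraries came from male C57BL/6J mice at postnatal day 14, with 3 libraries labelled *Chrdl1* KO and 3 labelled WT. The labels name no other allele or treatment and do not describe how the KO allele was made. Each KO library shares a title code, and with it a replicate number from 1 to 3, with 1 WT library. Whether the libraries are separate animals is not said in the labels, and the p-values therefore reflect library-to-library spread, which may be technical. Values are FPKM (fragments per kilobase of exon, scaled to the mapped reads of the library). The scaling by length makes genes only roughly comparable, because a value also depends on the exons counted for each gene.

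Depth recovered from the FPKM values ran from 22.65 to 31.9 megareads in KO and from 27.5 to 38.2 megareads in WT, and at each number KO was shallower than WT. *Chrdl1* stood at 0.172, 0.190 and 0.120 FPKM in KO replicates 1, 2 and 3 and at 3.65, 3.57 and 3.09 FPKM in WT replicates 1, 2 and 3, which goes with the labels. The markers of excitatory cortical neurons summed to between 692 and 814 FPKM in KO and between 700.0 and 798 FPKM in WT. Markers of mature oligodendrocytes and of neighbouring tissue differed between libraries. The 8 oligodendrocyte markers summed to 1344, 2607 and 2032 FPKM in KO replicates 1, 2 and 3. In WT replicates 1, 2 and 3 they summed to 1715, 2278 and 2830 FPKM. All 8 were lower in KO on average, with KO and WT overlapping for each. Markers of striatal neurons summed to 134.5, 301.3 and 135.6 FPKM in KO replicates 1, 2 and 3 and to between 261 and 308 FPKM in WT. All 10 striatal markers were lower in KO on average, with a median log2 fold change of -0.58. By limma 4 of them had an unadjusted p under 0.05, beside 0.63% of tested genes, and 0 were called. KO and WT did not overlap for 1 of the 10, beside 2.95% of tested genes. The choroid plexus gene *Ttr* reached 310 FPKM in KO replicate 3 and 149.6 FPKM in WT replicate 1, against at most 5.46 FPKM in the other 4 libraries.

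No target passed the test between KO and WT cortex. Of the 9 members, 6 had a mean of 1 FPKM or more and entered the test (*Id1*, *Id2*, *Id3*, *Id4*, *Hey1* and *Smad7*). By limma on log2(FPKM + 1), 0 of these 6 were called higher and 0 lower at an adjusted p under 0.05, with a limma adjusted p of 1 for each. Of all 12863 tested genes, 0% were called higher and 0.00777% lower, which is *Chrdl1* alone. At an unadjusted p under 0.05, 0 of the 6 members passed, against 0.63% of tested genes, and limma-voom on recovered reads also called 0 of the 6. That share is below the 0.05 that a calibrated test without differences would give on average. The main fit leaves out the replicate number. With the number as a block, limma gave an unadjusted p under 0.05 for 503 of the 12863 genes, against 81 without it, and for 0 of the 6 members. The mean in KO lay between 91.7% and 114% of the mean in WT for all 9 members. The KO and WT libraries overlapped for every member, as they did for all but 2.95% of the tested genes.

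The levels spanned 145-fold from the lowest to the highest member. *Id2* was the most abundant, with a mean of 92.3 FPKM over the 6 libraries, above 97.7% of all rows of the table. *Id3* followed at 30.8 FPKM, then *Hey1* at 25.0 FPKM, *Id4* at 15.8 FPKM and *Id1* at 10.9 FPKM. *Smad7* stood at 3.62 FPKM. The lowest library of each of these genes lay above the highest library of the next one in the order, so that order held in all 6 libraries. *Bambi*, *Atoh8* and *Smad6*, at means of 0.807, 0.656 and 0.638 FPKM, overlapped with each other and could not be ordered beyond their spread.

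**Figure D1:**
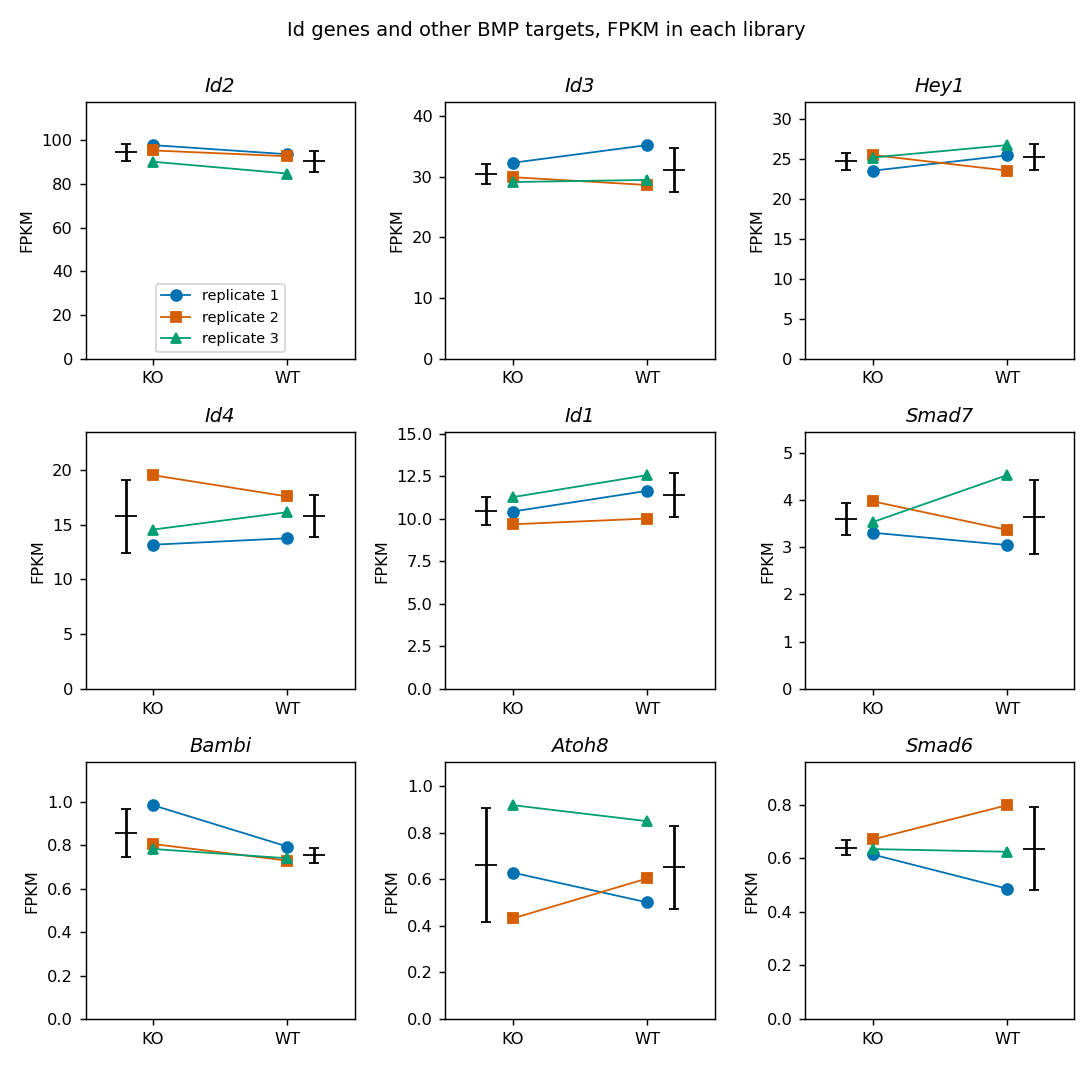
FPKM of each of the 9 members in the 3 KO and 3 WT libraries, in order of mean level, with lines joining libraries that share a replicate number. Black bars give the mean and SD of each genotype (n = 3). KO and WT overlap in every panel, and the scale differs between panels.

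Id proteins carry a helix-loop-helix domain but no basic DNA-binding stretch, and they hold E proteins and other bHLH factors away from DNA. RefSeq promoters were found for *Id2*, *Id3* and *Id4* among the *Id* genes and for *Smad6* and *Atoh8*, on build GRCm38.p6, and not for *Id1*, *Hey1*, *Smad7* and *Bambi*. The 250 bases before the RefSeq transcription start are shown for the 3 *Id* genes. The *Id* family is the best-known group of direct targets, but its classic member *Id1* had no promoter to show. The 3 genes shown are abundant in this tissue. The starts were not the same in every source. The *Id4* window ends at 48261115, while the counted row starts at 48261427 and the GENCODE M21 gene at 48261228. The *Id2* and *Id3* windows lie inside the GENCODE M21 genes, which reach to 25097140 (*Id2*, minus strand) and begin at 136143497 (*Id3*). Capitals mark the GC-rich motifs GGCGCC and GGAGCC and the Smad-type motif CAGAC, each searched on both strands (GGAGCC also as GGCTCC and CAGAC also as GTCTG). No 2 matches overlapped.
Id2 (chr12:25096093-25096342, minus strand): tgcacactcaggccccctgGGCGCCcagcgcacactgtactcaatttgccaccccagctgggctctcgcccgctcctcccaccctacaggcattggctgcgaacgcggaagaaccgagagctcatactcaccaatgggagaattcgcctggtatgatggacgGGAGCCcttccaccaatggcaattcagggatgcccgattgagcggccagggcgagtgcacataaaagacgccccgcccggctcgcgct
Id3 (chr4:136143572-136143821, plus strand): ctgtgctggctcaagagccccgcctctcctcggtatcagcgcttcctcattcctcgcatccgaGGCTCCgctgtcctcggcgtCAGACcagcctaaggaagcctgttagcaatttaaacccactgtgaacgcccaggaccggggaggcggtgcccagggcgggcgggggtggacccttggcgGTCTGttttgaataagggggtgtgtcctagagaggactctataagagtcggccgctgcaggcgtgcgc
Id4 (chr13:48260866-48261115, plus strand): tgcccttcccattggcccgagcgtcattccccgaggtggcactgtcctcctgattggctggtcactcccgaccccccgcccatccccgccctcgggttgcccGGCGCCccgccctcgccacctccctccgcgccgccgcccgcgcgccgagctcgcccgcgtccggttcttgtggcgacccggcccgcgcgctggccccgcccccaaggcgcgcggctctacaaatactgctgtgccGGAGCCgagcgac
*Id2* and *Id4* each held 1 GGCGCC and 1 GGAGCC and no CAGAC, and *Id3* held 1 GGAGCC, 2 CAGAC and no GGCGCC. *Smad6* held 2 GGAGCC, and *Atoh8* held none of the 3. Among 32851 promoter windows of the same length, 9.59% held GGCGCC, 26% held GGAGCC and 42.2% held CAGAC. Those windows were not matched for base composition. The *Id2*, *Id3* and *Id4* windows were 62.8%, 62.8% and 75.6% G or C, against a median of 52.4% over all promoters. A match here is a run of letters, and no binding was measured in these libraries.

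*Id1* (NM_010495, chromosome 2 from 152736251 to 152737410 on mm10) is the classic immediate target of BMP receptors. It measured 10.4, 9.68 and 11.3 FPKM in KO replicates 1, 2 and 3, against 11.7, 10.02 and 12.6 FPKM in WT replicates 1, 2 and 3. The KO library was lower than the WT library at each of the 3 numbers, with ratios of 0.895, 0.966 and 0.897, but the genotypes overlapped because WT replicate 2 was low. The log2 fold change was -0.11 (SE 0.10, 95% interval -0.34 to 0.12). Among tested genes 9.59% were lower in KO at all 3 numbers. *Id1* is strongly made by endothelial cells. The 12 endothelial markers summed to 136, 117.7 and 129.6 FPKM in KO replicates 1, 2 and 3. In WT replicates 1, 2 and 3 they summed to 128.7, 112.2 and 130.8 FPKM. Both libraries numbered 2 were thus also low in this sum, though single markers did not all follow it. Between genotypes, 12 of these markers were higher in KO, 0 lower and 0 called (median log2 fold change 0.052), the direction opposite to *Id1*. The part of endothelial RNA in the *Id1* level was not tested, and in bulk tissue fewer cells of a type and less RNA per cell cannot be told apart.

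*Id2* (NM_010496, chromosome 12 from 25093799 to 25096092) restrains neuronal and other bHLH factors. It measured 97.7, 95.3 and 90.1 FPKM in KO replicates 1, 2 and 3, against 93.5, 92.6 and 84.7 FPKM in WT replicates 1, 2 and 3. It was higher in KO at each number, by a ratio of 1.04, 1.03 and 1.06, opposite in direction to *Id1*. The log2 fold change was 0.064 (SE 0.07, 95% interval -0.11 to 0.24). The share of tested genes higher in KO at all 3 numbers was 12.3%. The libraries numbered 3 were the lowest in each genotype.

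*Id3* (NM_008321, chromosome 4 from 136143822 to 136145392) is often induced together with *Id1* by BMPs. It measured 32.3, 29.9 and 29.1 FPKM in KO replicates 1, 2 and 3, against 35.2, 28.6 and 29.4 FPKM in WT replicates 1, 2 and 3. Both libraries numbered 1 were high, and the other 4 lay between 28.6 and 29.9 FPKM whatever their genotype. The log2 fold change was -0.025 (SE 0.09, 95% interval -0.24 to 0.19).

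*Id4* (NM_031166, chromosome 13 from 48261427 to 48264036) acts in neural progenitors and glia. It measured 13.2, 19.5 and 14.6 FPKM in KO replicates 1, 2 and 3, against 13.8, 17.6 and 16.1 FPKM in WT replicates 1, 2 and 3. Both libraries numbered 2 were above the other 4. The log2 fold change was -0.018 (SE 0.15, 95% interval -0.36 to 0.33), the widest interval of the 6 tested members. Exons of *Id4* overlap those of *A330033J07Rik* (typed antisense) and *Gm49291* (typed lincRNA) on the opposite strand in GENCODE M21. The recorded counting command names no strand option, so the *Id4* value is uncertain to that extent. *Gm49291* had no row under that symbol among the deposited values. *A330033J07Rik* itself was at 0.741, 1.08 and 0.623 FPKM in KO replicates 1, 2 and 3 and at 0.633, 0.971 and 0.721 FPKM in WT replicates 1, 2 and 3, also highest at number 2.

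Summed over the 4 *Id* genes, the level was 151 ± 5.17 FPKM in KO and 148.6 ± 5.63 FPKM in WT (SD, n = 3 each). *Id2* made up 62.5 ± 1.004% of that sum in KO and 60.7 ± 1.47% in WT. *Id1* made up 6.95 ± 0.764% in KO and 7.70 ± 1.04% in WT, *Id3* 20.2 ± 0.825% in KO and 20.9 ± 1.82% in WT, and *Id4* 10.4 ± 2.06% in KO and 10.7 ± 1.54% in WT. KO and WT libraries overlapped in the sum and in each of these shares.

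*Hey1* (NM_010423, chromosome 3 from 8663359 to 8667038) encodes a bHLH repressor that both BMP and Notch signals induce. It measured 23.5, 25.5 and 25.2 FPKM in KO replicates 1, 2 and 3, against 25.4, 23.5 and 26.7 FPKM in WT replicates 1, 2 and 3. The order of the libraries differed between the genotypes, and KO was higher at number 2 and lower at numbers 1 and 3. The log2 fold change was -0.027 (SE 0.08, 95% interval -0.20 to 0.15). *Atoh8* (NM_153778, chromosome 6 from 72206177 to 72235577) encodes another bHLH factor. It measured 0.629, 0.432 and 0.919 FPKM in KO replicates 1, 2 and 3, against 0.501, 0.604 and 0.850 FPKM in WT replicates 1, 2 and 3, with between 23 and 69 reads per library. Both libraries numbered 3 were above the other 4.

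*Smad7* (NM_001042660, chromosome 18 from 75367365 to 75395934) encodes an inhibitory Smad that blocks receptors of the BMP and TGF-beta branches. It measured 3.31, 3.97 and 3.53 FPKM in KO replicates 1, 2 and 3, against 3.05, 3.37 and 4.53 FPKM in WT replicates 1, 2 and 3. KO was higher at numbers 1 and 2 and lower at number 3, where the WT library was the highest of all 6. The log2 fold change was -0.0028 (SE 0.13, 95% interval -0.30 to 0.29). *Smad6* (NM_008542, chromosome 9 from 63953076 to 64022059), the inhibitory Smad that acts mainly on the BMP branch, measured 0.614, 0.670 and 0.634 FPKM in KO replicates 1, 2 and 3, against 0.486, 0.798 and 0.624 FPKM in WT replicates 1, 2 and 3. The 3 KO libraries lay inside the range of the WT libraries, and each library rested on 45 to 65 reads.

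*Bambi* (NM_026505, chromosome 18 from 3507957 to 3516404) encodes a pseudoreceptor that lacks the kinase domain and dampens the signal at the membrane. It measured 0.986, 0.807 and 0.784 FPKM in KO replicates 1, 2 and 3, against 0.795, 0.730 and 0.741 FPKM in WT replicates 1, 2 and 3. KO was higher at each number, with ratios of 1.24, 1.11 and 1.06, and the genotypes overlapped because KO replicate 3 lay below WT replicate 1. An exact 2-sided permutation test gave p = 0.2, where 0.1 is the smallest value that 3 against 3 libraries allow. *Bambi*, *Atoh8* and *Smad6* were below the limit for the test, and with every expressed row tested instead they had log2 fold changes of 0.08, 0.0024 and 0.0072 and a limma adjusted p of 1 each.

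**Figure D2:**
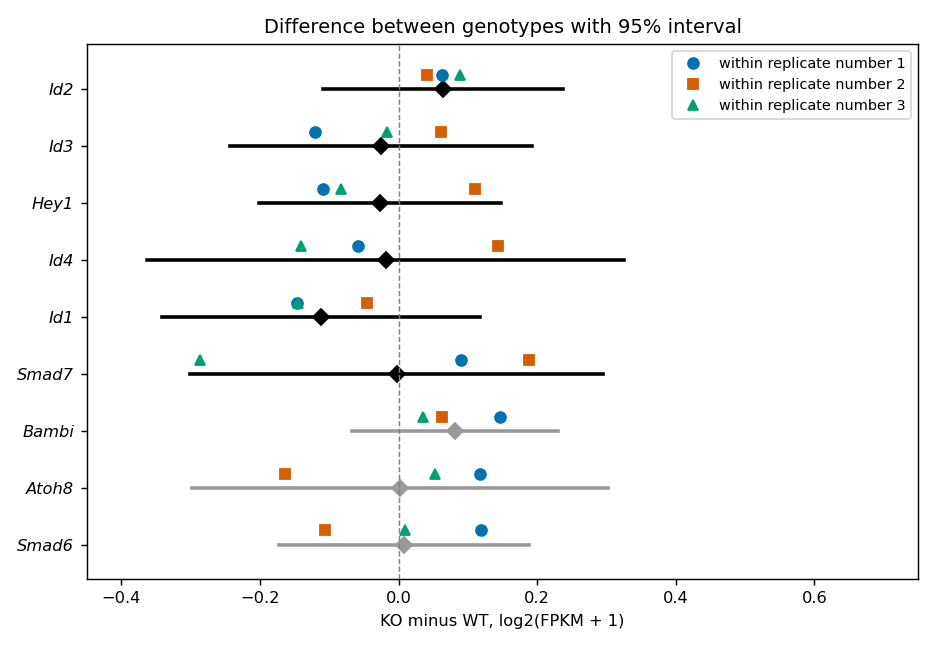
Difference between KO and WT in log2(FPKM + 1) for each member (diamond) with its 95% limma interval (line), and the difference within each replicate number (coloured points). Black marks the 6 members with a mean of 1 FPKM or more, and grey the 3 lower ones, whose intervals come from the fit without that limit. All 9 intervals include 0.

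The 95% intervals are unadjusted and give the precision of each difference from the spread between libraries, which may be technical. A difference beyond them could still go uncalled after adjustment over all tested genes. For the 6 tested members the 95% intervals lay within 0.778-fold and 1.25-fold on the FPKM + 1 scale, with *Id4* at both ends. That of *Id1* ran from 0.789-fold to 1.09-fold and that of *Id2* from 0.927-fold to 1.18-fold. With the replicate number as a block, the intervals of the 6 narrowed to between -0.23 (*Id1*) and 0.22 (*Smad7*) on the log2 scale, and that of *Id4* to -0.17 to 0.13. For *Smad7* and the 3 lower genes the added 1 narrows these bounds, and their FPKM ratios are less well fixed.

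By raw share, the members varied more with the replicate number than with genotype. Splitting the squared deviation of log2(FPKM + 1) over the 6 libraries, the number took 74.2% for *Id1*, 73.6% for *Id2*, 84.7% for *Id3* and 89.6% for *Id4*. Genotype took 21.9% for *Id1*, 24.1% for *Id2*, 1.58% for *Id3* and 0.24% for *Id4*. The number took over 50% in 7 of the 9 members, and *Hey1* (35.9%) and *Bambi* (48.7%) were the exceptions. In 0 of the 9 did genotype take more than the number. That comparison favours the number, which has 2 of the 5 degrees of freedom against 1 for genotype. *Hey1* lay below the 40% that the number takes on average without any structure. *Bambi*, with 38.4% for genotype, lay above the 20% that genotype takes on average. Of all tested genes 76.3% also had over 50% with the number. Their median was 77.3% for the number and 3.67% for genotype, where libraries without any structure would give 40% and 20% on average.

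The number did not act on the members in the same way. *Id3* was highest at number 1, *Id4* and *Smad6* at number 2, and *Id1* and *Atoh8* at number 3, where *Id2* was lowest. For *Id4* the spread within a genotype was 17.3% of the mean against 3.63% from read counting alone. For *Id2* it was 4.78% against 1.71%, and for *Atoh8* 32.7% against 15.6%. For *Smad6* it was 17.7% against 13.5%, and for *Bambi* 9.67% against 9.20%.

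**Figure D3:**
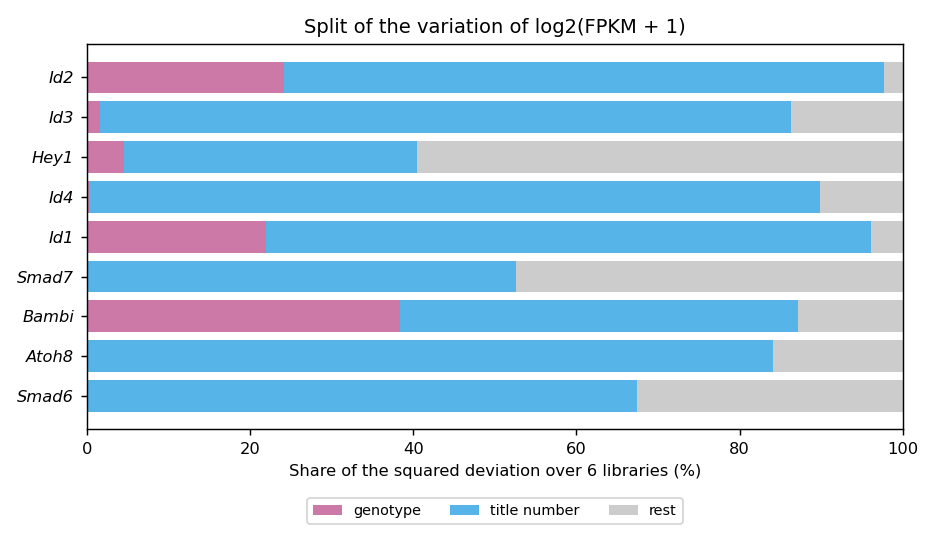
Share of the squared deviation of log2(FPKM + 1) over the 6 libraries that goes with genotype, with the replicate number in the title and with neither, for each member in order of level. The number holds over 50% in 7 of the 9 members, and genotype at most 38.4% (*Bambi*).

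Genes whose level moved over the 6 libraries most like an *Id* gene were ranked by the root mean square difference in centred log2(FPKM + 1). *A930001C03Rik* (0.014) and *Ptpmt1* (0.022) were nearest to *Id1*, and *Abcc1* (0.013) was among the nearest to *Id2*. *Glud1* (0.020) and *Cct6a* (0.022) were nearest to *Id3*, and *Cpm* (0.021) and *Gm10033* (0.028) to *Id4*. Within a difference of 0.05 there were 104 genes for *Id1*, 563 for *Id2*, 206 for *Id3* and 14 for *Id4*, so the flat profile of *Id2* was shared by many genes and that of *Id4* by few. The added 1 compresses genes near 1 FPKM: *Cpm* ran from 0.855 to 1.69 FPKM and *Gm10033* from 0.708 to 1.42 FPKM, wider in proportion than *Id4*, which ran from 13.2 to 19.5 FPKM.

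The genes upstream of the targets were not called either. Of the 6 tested members 1 was higher and 5 were lower, and their log2 fold changes had a median of -0.022, beside 6921 higher and 5942 lower and a median of 0.0054 over all tested genes. Of 12 receptors and signal-carrying Smads, 6 were higher and 6 lower, 0 were called, and the median was -0.0066. *Acvr1*, a BMP type I receptor gene, measured 9.07, 9.14 and 8.51 FPKM in KO replicates 1, 2 and 3 and 10.4, 8.97 and 9.32 FPKM in WT replicates 1, 2 and 3 (log2 fold change -0.09). *Smad1* and *Acvrl1* stood at -0.08 and -0.06.

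Of 5 tested ligand genes, 3 were higher and 2 lower, and 0 were called. *Bmp6* measured 2.84, 2.88 and 2.84 FPKM in KO replicates 1, 2 and 3, against 1.945, 2.401 and 2.56 FPKM in WT replicates 1, 2 and 3, with no overlap and a log2 fold change of 0.23 (limma unadjusted p = 0.0434, adjusted p = 1). *Bmp7* and *Bmp4* stood at 0.14 and 0.09. Of 9 antagonist genes other than *Chrdl1*, 7 were higher and 2 lower, 0 were called, and *Twsg1*, *Crim1* and *Bmper* stood at 0.17, 0.12 and 0.10. KO and WT did not overlap for 1 of the 5 ligands (*Bmp6*) and 2 of the 9 antagonists (*Twsg1* and *Bmper*), beside 2.95% of all tested genes. Some of these ligands and antagonists are also made by meningeal cells, whose 10 markers summed to 120.4, 98.7 and 123.4 FPKM in KO replicates 1, 2 and 3 and to 90.2, 95.7 and 97.6 FPKM in WT replicates 1, 2 and 3. The part of meningeal RNA in those differences was not tested.

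Of 14 regulators and other targets of BMP-Smad signalling, 8 were higher, 6 lower and 0 called. *Tob2*, *Nog* and *Msx1* stood at 0.13, -0.15 and 0.13, and *Nog* was also counted among the antagonists. Of 14 Notch pathway genes, chosen because *Hey1* is also a Notch target, 9 were higher, 5 lower and 0 called. KO and WT did not overlap for 1 of these 14, beside 2.95% of all tested genes. *Hes5*, a Notch target in progenitors and astrocytes, measured 8.76, 7.35 and 7.14 FPKM in KO replicates 1, 2 and 3 and 8.63, 7.61 and 9.41 FPKM in WT replicates 1, 2 and 3. *Notch2* and *Hey2* stood at 0.15 and -0.12. Of 9 bHLH genes whose products bind Id proteins or are held back by them, 8 were higher, 1 was lower and 0 were called, with *Neurod1*, *Olig2* and *Olig1* at 0.07, 0.06 and -0.07.

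**Figure D4:**
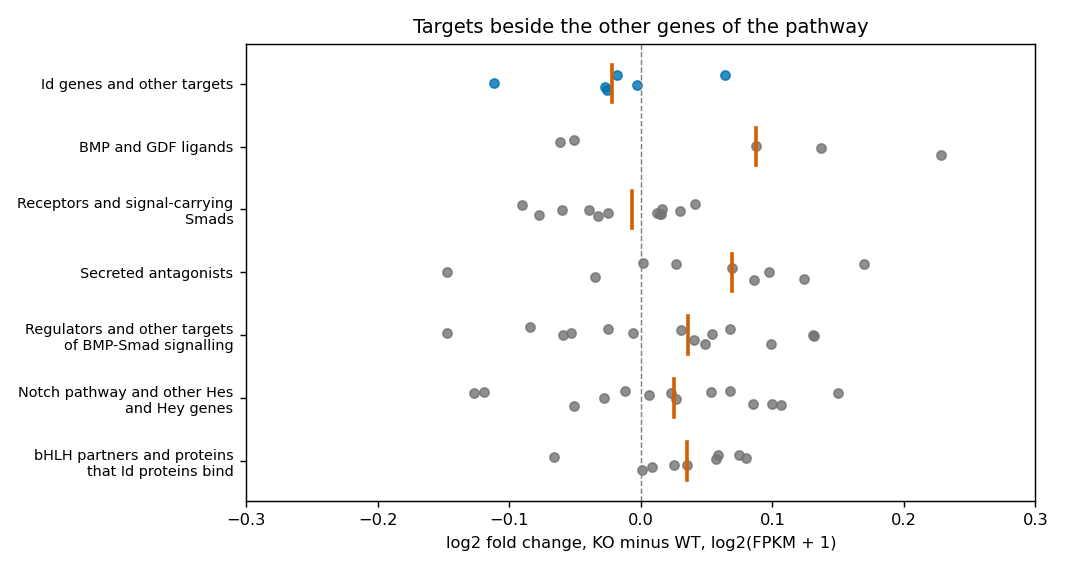
Log2 fold change, KO minus WT in log2(FPKM + 1), of each tested gene, with the median of each list as an orange line. The members are in the top row. Below are 6 lists of other genes, from the BMP pathway, the Notch pathway and bHLH factors. The lists overlap in part, and *Nog* is among the genes shown more than once. The medians lie between -0.022 and 0.087, and 0 of the genes shown were called.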

How the data were processed

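Visual cortex RNA of 3 KO and 3 WT libraries was used. Per the file headers, the authors deposited FPKM values made with HOMER on mm10, counting reads over exons with 1 row per gene, and per the submitters' processing notes STAR 2.4.0k and HOMER 4.8.3 were used. Of 12 libraries in the recorded command, the 6 with a column were used. The deposited exon lengths (another column of the table) were used to turn FPKM into reads: 100% of the low values checked came out whole within 0.1 read.

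The 12863 genes that averaged at least 1 FPKM were tested with limma 3.58.1 (R 4.3.3) on log2(FPKM + 1), KO against WT, 2-sided, with an intensity trend and Benjamini-Hochberg adjustment over all of them. The threshold was 0.05. The script was tested on simulated data. The shared title numbers pair the libraries: across genes, deviations from the genotype means correlated at 0.43, 0.71 and 0.67 for numbers 1, 2 and 3 and at -0.061 or below for the other pairings. Deviations within a genotype cancel for each gene, so the negative values follow on balance from the positive ones and are not separate support. The replicate block was run as an alternative. No 2 libraries of a genotype agreed within sampling noise (chi-square per degree of freedom 13.8 or more).

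Members and lists were chosen with earlier results of these data known. Genes named outside the 9 members were the 3 with the smallest unadjusted p in each pathway list and the 2 most like each *Id* gene, a rule written with the lists, and 1 of them is not reported here. *Chrdl1*, *Ttr* and *A330033J07Rik* were added for their bearing on a value. Markers were summed by cell type. Promoters are from RefSeq, GRCm38.p6, and overlapping genes from GENCODE M21. The other software was Python 3.11.15 with pandas 2.3.3 and scipy 1.17.1.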

Additional observations from a re-analysis of the deposited data

How the results depend on the processing

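Under all 13 alternatives, 0 members were called higher and 0 lower. These were a pseudocount of 0.1, no filter on low values, the replicate block, 2 other scalings between libraries, limma-voom on recovered reads, no intensity trend, and leaving out each library in turn. With the replicate block, 1 gene was called over the whole table, and the log2 fold change of *Id1* stayed at -0.11 with a limma unadjusted p of 0.0598 and an adjusted p of 0.999. The number of genes called over the whole table was 1, but 2 with a pseudocount of 0.1, 6 with no filter, and 1 to 4 when a library was left out (4 without KO replicate 2). *Id1* remained lower and *Id2* higher throughout, at -0.20 to -0.045 and 0.019 to 0.10 when a library was left out. The sign of the other 4 tested members turned in 10 of 52 values, all from leaving out a library: *Id3* ranged from -0.080 to 0.064, *Id4* from -0.17 to 0.093, *Hey1* from -0.074 to 0.014 and *Smad7* from -0.10 to 0.13, and the cause was not tested. The difference of *Bambi* was 0.08, and 0.16 with a pseudocount of 0.1, and it stayed above 0 without any 1 library (0.033 to 0.11), while *Atoh8* (-0.11 to 0.10) and *Smad6* (-0.060 to 0.078) did not keep a sign. Few reads limit *Smad6*, *Bambi* and *Atoh8*, and limits from reads cover counting error only.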
